A study of Mus musculus with 15 samples.

Results

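Intestinal tissue of mice whose libraries are described as PG_KO was compared with tissue described as ctr, across genes and with epithelial genes kept apart from stromal and immune genes. The comparison uses 6 of the 15 libraries of the series, 3 per group, and the other 9 are organoids, which serve here only to sort genes by whether cultured epithelium expresses them. Libraries were grouped by their descriptions, and the group names are used as given there. The titles disagree with the descriptions: those of the ctr libraries carry a floxed Jup gene with iVilCre ERT2, and those of the PG_KO libraries carry DSS colitis with the floxed gene and no Cre. Low Jup goes with the descriptions, as given below, so the descriptions are used throughout. All 6 titles give the floxed allele. The titles name DSS, dextran sulfate sodium, a compound given to mice to injure the colon lining, only for the PG_KO libraries, and the labels used here do not settle which animals received it, so an effect of the gene and an effect of DSS cannot be told apart. Neither the age and sex of the animals nor the stretch of intestine is in the labels, which name the tissue only as mouse gut. The labels list each library as a separate sample without naming animals, so p-values measure the spread between these samples.

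Plakoglobin, the protein encoded by Jup and also called gamma-catenin, sits on the inner face of desmosomes and adherens junctions, where it links cadherins to the cell skeleton, and it is a close relative of beta-catenin. An inducible Cre under the villin promoter acts in intestinal epithelium once tamoxifen is given, so in such mice other cells of the wall keep an intact gene. The colon lining consists mainly of absorptive colonocytes and of goblet cells, which secrete the mucus layer, both renewed from stem cells at the crypt base. Below it lie fibroblasts, vessels, smooth muscle, enteric nerves and immune cells, and whole tissue mixes all of these.

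Libraries held between 23194385 and 29257641 reads, and 3 reads corresponded to 0.103 to 0.129 CPM, that is reads of a gene scaled to the same library total. Across genes the first principal component took 53.1% of the variance and set ctr 1 and ctr 2 apart from the other 4 libraries. These 2 libraries also held the most stromal RNA. In PG_KO 3 the 4 Y-linked genes of the sex list were at 0 reads and Xist was at 384 CPM, while the other 5 libraries expressed the Y-linked genes, so sex differed within the PG_KO group. Markers of the stretch of intestine were mixed. Hoxb13, a homeobox gene of the hindgut, was at 138, 261 and 270.4 CPM in ctr and 168, 227 and 330 CPM in PG_KO. Of 6 genes on the ileum list 4 passed the filter on low counts, and all 4 overlapped between groups. Fabp6, a bile acid carrier of the ileum, stayed at or below 5.09 CPM in every library, while Slc10a2, the ileal bile acid uptake transporter, was at 21.3, 16.1 and 23.2 CPM in ctr and 15, 5.32 and 32.7 CPM in PG_KO. Slc51b, a subunit of the bile acid exporter, was at 12.7, 34.4 and 49 CPM in ctr and 30.2, 13 and 19 CPM in PG_KO, and Nr1h4, the bile acid receptor, at 49.9, 72.7 and 99.3 CPM in ctr and 89.4, 68.6 and 95.4 CPM in PG_KO. The list of 14 Paneth cell genes, of which 4 passed the filter, summed to between 21.2 and 74.2 CPM per library. The enterocyte list summed to between 357 and 682 CPM, and the colonocyte list to between 5419 and 12706 CPM. In bulk tissue, fewer cells of a type and less RNA per cell cannot be told apart, and this holds for every list here and below.

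No gene passed the main test, edgeR's quasi-likelihood test over 18043 genes with Benjamini-Hochberg adjustment at 0.05 (0% called). The lowest adjusted p was 0.077, and 2705 genes had an unadjusted p under 0.05, 951 higher (5.27%) and 1754 lower (9.72%) in PG_KO. DESeq2 called 458 of the same genes (2.54%), 91 higher (0.504%) and 367 lower (2.03%), and limma-voom called 0. The edgeR count rests on ctr 3: without that library 1478 genes passed, 374 higher and 1104 lower. Genes are therefore described by their values and by whether the 3 PG_KO libraries all lay above or all below the 3 ctr libraries. By that count 1798 genes (9.97%) were higher and 1565 (8.67%) lower in PG_KO, against which each list is read, and the median log2 change of all tested genes was -0.03. When levels were scaled to 18 pan-epithelial genes instead, the median of all genes moved to -0.31, and the counts became 258 higher (1.43%) and 1518 lower (8.41%).

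Jup itself, at chr11:100368856-100397839 on the minus strand (GRCm38.p6), was at 302, 375 and 495 CPM in the ctr libraries and 75.2, 82.8 and 80.3 CPM in the PG_KO libraries. The groups did not overlap, and the PG_KO libraries lay within a narrow range while the ctr libraries differed among themselves. The ctr mean was 4.91-fold higher, with a log2 change of -2.29 (SE 0.23) and an edgeR adjusted p of 0.163. Across the alternatives the adjusted p ran from 2.42e-14 with DESeq2 to 0.604 without PG_KO replicate 2, and the log2 change from -2.03 without ctr replicate 3 to -2.67 without both ctr 1 and ctr 2. Residual reads remained in all 3 PG_KO libraries.

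Most other junction genes overlapped between groups. Of 12 tested desmosome genes 2 were higher and 0 lower without overlap, and the median log2 change was 0.46. Pkp2, a desmosomal plaque protein, was at 50.8, 49.6 and 64.6 CPM in ctr and 70.0, 82.7 and 72.3 CPM in PG_KO, a log2 change of 0.45 (SE 0.16). Ppl, which encodes periplakin, was at 15.6, 4.4 and 17 CPM in ctr and 28.5, 24.7 and 20.3 CPM in PG_KO. The cadherins Dsg2 and Dsc2 and the plaque protein Dsp overlapped between groups, with log2 changes of 0.09 (SE 0.26), 0.37 (SE 0.31) and 0.41 (SE 0.29). Ctnnb1, which encodes beta-catenin, was at 856, 782 and 1043 CPM in ctr and 1151, 1040.1 and 979.6 CPM in PG_KO, and the groups overlapped. Pkp1, Pkp3 and Pkp4 overlapped as well, and ctr 1 held the lowest Pkp1, Pkp3, Dsp, Dsg2 and Dsc2 of the 6 libraries. Among 31 genes of adherens and tight junctions 1 was higher (Cgnl1, 0.37 (SE 0.16)) and 2 lower (Cldn23, -0.49 (SE 0.16), and Cldn1, -3.74 (SE 1.17)), with a median of 0.17. The size for Cldn1 rested on ctr 1. It was at 20.9, 1.21 and 2.41 CPM in ctr and 0.211, 0.752 and 0.82 CPM in PG_KO, and its log2 change without ctr 1 was -1.64. These junction medians were 0.09 and -0.16 against ctr 3 alone, so their sign or size rests on ctr 1 and ctr 2.

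**Figure D1:**
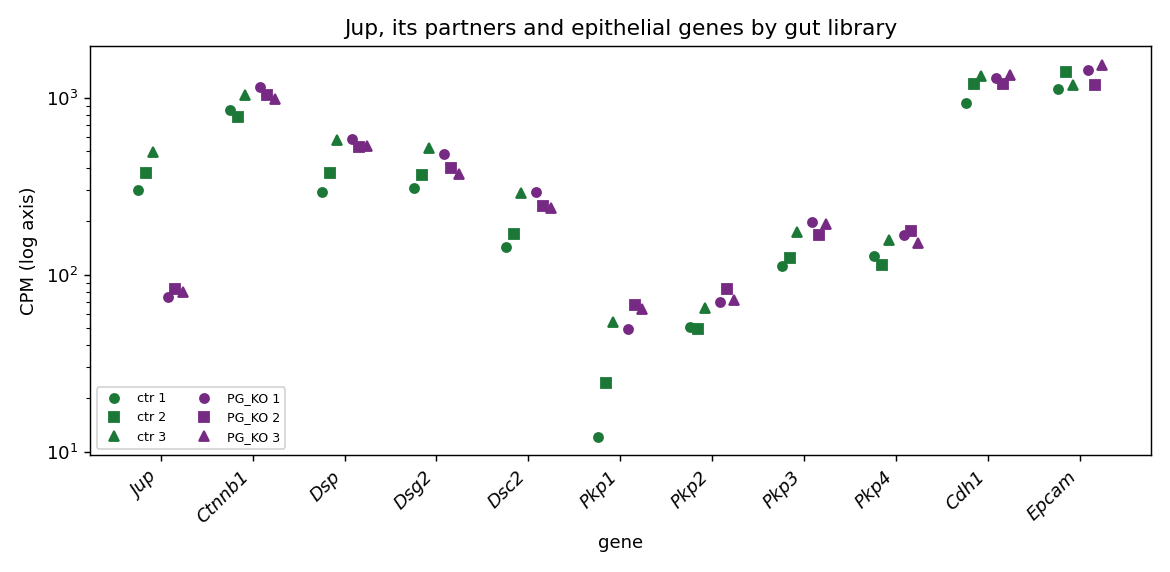
CPM on a log axis for Jup, its partners and 2 epithelial genes, with 1 point per gut library (green ctr, purple PG_KO, shape by replicate). Jup lies at 75.2 to 82.8 CPM in PG_KO and at 302 to 495 CPM in ctr, while Ctnnb1, Dsp, Dsg2 and Dsc2 overlap between groups.

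Goblet cell genes were lower in PG_KO, with the lowest median of the epithelial lists. Of 14 listed genes, all tested, 12 were lower without overlap and 0 higher, and the median log2 change was -2.48. DESeq2 called 10 of them, all lower. The summed level took 1.14% ± 0.197 of reads in ctr and 0.361% ± 0.036 in PG_KO (SD, n = 3), and an exact two-sided permutation test gave 0.1, the smallest p that 3 against 3 allows. The count was 12 also with ctr 1 left out, where the background was 10.7%, and 14 against ctr 3 alone, where it was 20.3%. Without PG_KO 3 it was 12, with a background of 14.8%, and with levels scaled to the pan-epithelial genes it was 12 as well. The goblet median of -2.48 became -1.93 against ctr 3 alone. With the mean level of fibroblast and smooth muscle genes as a covariate that median was -1.90.

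Muc2, the gel-forming mucin of the colon, lies at chr7:141690340-141754694 and was at 2286, 1704 and 1095 CPM in ctr and 141, 444 and 228 CPM in PG_KO, a log2 change of -2.64 (SE 0.45). Fcgbp, a mucus protein that binds to it, was at 1532, 1717 and 1203 CPM in ctr and 173, 389 and 265 CPM in PG_KO, a change of -2.43 (SE 0.30). PG_KO 1 was the lowest library for both. Retnlb, a secreted antibacterial protein of goblet cells, was at 24.2, 37.1 and 31.6 CPM in ctr and 1.37, 4.91 and 2.97 CPM in PG_KO. Bcas1 was at 33.4, 30.3 and 25.2 CPM in ctr and 2.18, 5.5 and 7.76 CPM in PG_KO. The next genes were named after their values were seen. Clca1, a mucus-processing protease, was at 2026, 1639 and 281 CPM in ctr and 22.7, 79.2 and 69.3 CPM in PG_KO. Zg16, a lectin that binds bacteria, was at 3094, 2151 and 451 CPM in ctr and 100.5, 333 and 265 CPM in PG_KO. For Clca1, Zg16 and Tff3, ctr 3 lay between ctr 2 and the PG_KO libraries, so the distance between groups depends on which ctr library is used. Spdef, a transcription factor of goblet cell maturation, was at 28.4, 22.1 and 55.2 CPM in ctr and 8.91, 14.8 and 15.5 CPM in PG_KO, with the highest value in ctr 3. Agr2, a disulfide isomerase needed for mucin folding, overlapped at 111, 127 and 546 CPM in ctr and 105, 149 and 271 CPM in PG_KO, and so did Galnt12, with a change of -0.03 (SE 0.25).

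Promoter sequence is given for the goblet genes that RefSeq's table for GRCm38.p6 covers, to set genes that were lower beside Agr2, which overlapped, together with Car4, the colonocyte gene with the lowest log2 change. The table held 5 of the 14 goblet genes, and Spdef is left out because its window lies inside the gene. Each run covers bases upstream of the start and outside the transcribed span, 5′ to 3′, on the plus strand. Capitals mark matches on either strand to any of 4 short motifs, and no matches overlap here. The general promoter element bound by TBP was searched as TATAAA. A form bound by CDX factors, which set intestinal identity, was searched as TTTATG. An E-box, the kind of site that the secretory lineage factor Atoh1 binds, was searched as CAGCTG. A form bound by SPDEF was searched as CCGGAT. Muc2 covers chr7:141690090-141690339, Fcgbp chr7:28070986-28071235, Muc13 chr16:33793787-33794036, Agr2 chr12:35992675-35992924 and Car4 chr11:84957504-84957753.
Muc2: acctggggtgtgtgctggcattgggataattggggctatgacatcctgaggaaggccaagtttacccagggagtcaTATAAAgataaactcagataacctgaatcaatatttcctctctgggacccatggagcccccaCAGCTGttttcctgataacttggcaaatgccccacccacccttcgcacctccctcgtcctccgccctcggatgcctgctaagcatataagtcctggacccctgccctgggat
Fcgbp: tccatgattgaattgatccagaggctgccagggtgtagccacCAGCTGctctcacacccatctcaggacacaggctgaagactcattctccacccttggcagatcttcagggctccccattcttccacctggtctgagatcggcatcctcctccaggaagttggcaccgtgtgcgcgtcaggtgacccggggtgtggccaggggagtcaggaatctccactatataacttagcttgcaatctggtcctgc
Muc13: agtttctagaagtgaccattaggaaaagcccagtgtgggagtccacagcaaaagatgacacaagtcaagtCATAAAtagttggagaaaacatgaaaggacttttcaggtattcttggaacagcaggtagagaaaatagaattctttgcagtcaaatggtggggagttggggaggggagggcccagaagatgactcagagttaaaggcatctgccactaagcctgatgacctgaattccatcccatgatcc
Agr2: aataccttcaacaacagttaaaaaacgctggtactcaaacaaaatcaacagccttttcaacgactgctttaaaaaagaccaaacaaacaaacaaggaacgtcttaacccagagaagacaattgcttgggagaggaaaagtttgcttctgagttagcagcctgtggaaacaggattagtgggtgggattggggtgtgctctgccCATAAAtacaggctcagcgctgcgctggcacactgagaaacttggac
Car4: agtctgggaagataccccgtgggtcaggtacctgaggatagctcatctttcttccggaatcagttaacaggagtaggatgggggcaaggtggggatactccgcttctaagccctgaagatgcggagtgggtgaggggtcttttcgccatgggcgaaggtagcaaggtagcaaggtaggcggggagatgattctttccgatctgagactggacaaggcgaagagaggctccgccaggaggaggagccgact
Among all 27025 promoter windows of 250 bases, the searched TBP form was in 13%, the CDX form in 11.1%, the searched E-box form in 12.8% and the SPDEF form in 4.9%. Muc2 holds the searched TBP form and, like Fcgbp, the searched E-box form, Muc13 and Agr2 hold the CDX form, and Car4 holds none of the 4. Only these exact forms were searched. Unmarked bases can hold other forms of the same elements, such as the TATA-like stretches near the ends of the Muc2 and Fcgbp runs. The CDX form is thus in a promoter of a gene that was lower and in that of Agr2, whose groups overlapped.

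**Figure D2:**
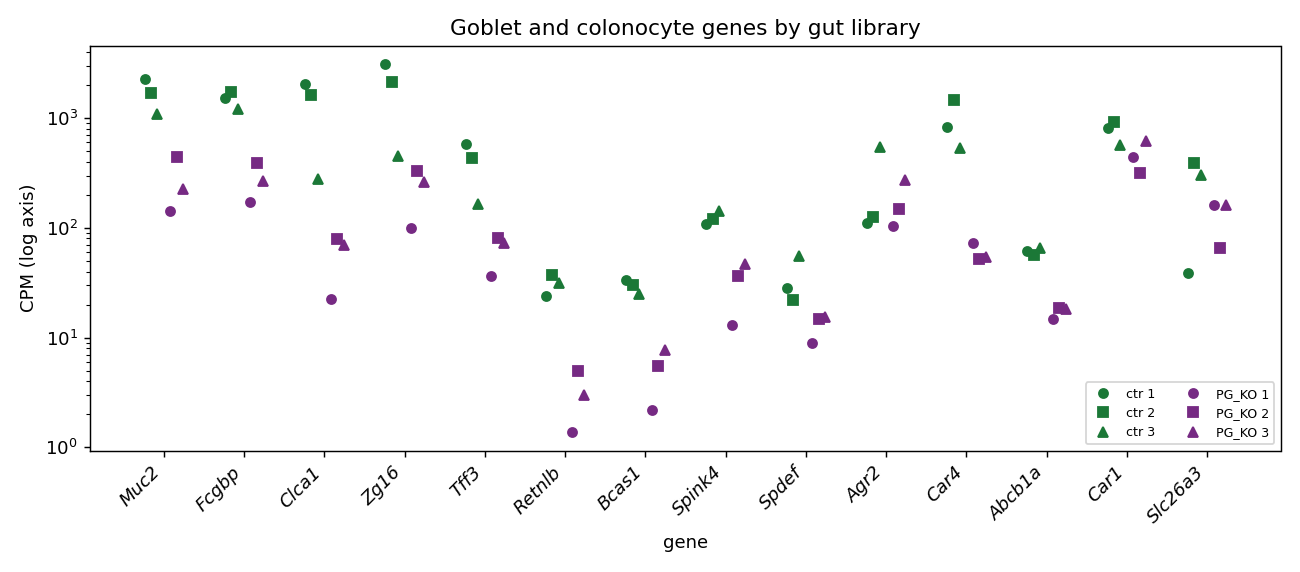
CPM on a log axis for 10 goblet and 4 colonocyte or transporter genes, with 1 point per gut library (green ctr, purple PG_KO, shape by replicate). Muc2, Fcgbp, Retnlb, Bcas1, Car4 and Abcb1a separate the groups, while Agr2, Car1 and Slc26a3 overlap.

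Genes of mature colonocytes were lower in part. Of 18 tested 9 were lower without overlap and 0 higher, the median log2 change was -1.02, and DESeq2 called 6, all lower. Without ctr 1 the count was 10, where the background was 10.7%, and without PG_KO 3 it was 11, where the background was 14.8%. Car4, a carbonic anhydrase of the colonocyte surface, was at 833, 1463 and 533 CPM in ctr and 72.1, 51.9 and 54 CPM in PG_KO, a log2 change of -3.97 (SE 0.42). Slc9a3, the apical sodium-hydrogen exchanger, was at 52.7, 91.1 and 61.9 CPM in ctr and 18.4, 3.96 and 9.43 CPM in PG_KO. Saa1, an acute-phase protein, was at 2111, 3237 and 876 CPM in ctr and 213, 212 and 424 CPM in PG_KO, and Scnn1a, a subunit of the epithelial sodium channel, was at 98, 159 and 99.5 CPM in ctr and 51.5, 45 and 73.2 CPM in PG_KO. Other colonocyte genes overlapped: Car1 was at 816, 915 and 570.2 CPM in ctr and 444, 313 and 622 CPM in PG_KO, and Car2 had a log2 change of 0.02 (SE 0.15). Slc26a3, the chloride exchanger, was lowest of all in ctr 1 at 38.6 CPM. Abcb1a, an efflux pump of the apical membrane that is not on the list, had the lowest p of all genes, at 61.7, 57 and 65.5 CPM in ctr and 14.7, 18.5 and 18.3 CPM in PG_KO, a log2 change of -1.83 (SE 0.14).

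The 18 pan-epithelial genes had a median log2 change of 0.23, and 15 of them had a positive change. That median rested on single libraries: it was 0.03 without ctr 1, 0.47 without ctr 3 and -0.07 against ctr 3 alone, and -0.06 with the mean level of fibroblast and smooth muscle genes as a covariate. Krt18, a keratin of simple epithelia, was higher without overlap at 443, 195 and 416 CPM in ctr and 735, 674 and 595 CPM in PG_KO. The brush border cadherins Cdhr2 and Cdhr5 and Phgr1 were lower, with log2 changes of -0.79 (SE 0.23), -0.77 (SE 0.24) and -0.47 (SE 0.17). Epcam overlapped at 1116, 1391 and 1182 CPM in ctr and 1443, 1176 and 1542 CPM in PG_KO. The summed share was 1.66% ± 0.389 in ctr and 2.11% ± 0.24 in PG_KO (SD, n = 3; exact permutation p = 0.2), and ctr 1 was lowest. Of 11 tested enterocyte genes 4 were lower and 1 higher, against backgrounds of 8.67% and 9.97%, with a median of -0.57. Of 4 tested Paneth cell genes 2 were lower, with a median of -1.09. Of 14 enteroendocrine genes 0 separated the groups, and their median of -0.78 became -0.17 without ctr 1. Of 8 tuft cell genes 3 were lower, among them Ltc4s, an enzyme of leukotriene synthesis, with a change of -1.70 (SE 0.36). Scaled to the pan-epithelial genes 1 of the 8 was lower. The tuft median of -1.36 became -0.80 without ctr 1 and -0.32 with the same covariate, and ctr 1 was the highest library for 6 of the 8. Among 16 antimicrobial genes 4 were lower, against a background of 8.67%: Retnlb, Saa1, Saa2 and Pigr. Retnlb is also counted on the goblet list and Saa1 on the colonocyte list. Pigr, the receptor that carries IgA into the lumen, was at 897, 2121 and 1898 CPM in ctr and 417, 826 and 693 CPM in PG_KO. The antimicrobial median of -1.11 became -0.56 without ctr 1 and -0.97 against ctr 3 alone.

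Proliferation genes pointed the other way. All 24 cell cycle genes had a positive log2 change, with a median of 0.61, and 9 were higher without overlap against the background of 9.97%. Mcm3, a subunit of the replicative helicase, was at 73.3, 82.8 and 102 CPM in ctr and 116, 144 and 131 CPM in PG_KO. Mki67 was at 180.2, 167 and 242 CPM in ctr and 264, 286 and 389.7 CPM in PG_KO. The ctr 3 library lay nearest to PG_KO for both. Scaled to the pan-epithelial genes 5 of 24 were higher, where the background was 1.43%. DESeq2 called 0, and against ctr 3 alone the median was 0.17. Stem cell and Wnt target genes did not separate as a group, with 0 of 19 higher, 1 lower (Lef1, -1.44 (SE 0.53)) and a median of 0.06. Lgr5, the crypt stem cell receptor, was at 0.644, 0.302 and 1.64 CPM in ctr and 0.388, 3.88 and 2.46 CPM in PG_KO.

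Some keratins of stratified epithelium were higher. Krt14 was at 2.43, 0.733 and 2.89 CPM in ctr and 45.1, 25.3 and 26.7 CPM in PG_KO, a log2 change of 4.02 (SE 0.56), and it was below 0.1 CPM in every organoid library. Krt13 was at 4.25, 1.81 and 9.74 CPM in ctr and 24.8, 23.3 and 35.8 CPM in PG_KO. Krt6a overlapped, with 1.55, 1.8 and 5.1 CPM in ctr and 43.8, 20.2 and 4.71 CPM in PG_KO. Other squamous genes stayed low: Krt5, the usual partner of Krt14, was at 0.761, 1.25 and 0.284 CPM in ctr and 0.429, 0.468 and 0.331 CPM in PG_KO. Of the 10 tested squamous genes 3 were higher without overlap (Krt14, Krt13 and Krt15) and 1 lower. DESeq2 called 3, all higher, which were Krt14, Krt13 and Krt6a, while Krt15 had a DESeq2 adjusted p of 0.227. Krt14, Krt13 and Krt15 lie on chromosome 11 between bases 100117327 and 100207510, close to Jup, whose span begins at 100368856. Krt19, a pan-epithelial gene within the same stretch, overlapped at 1766, 1811 and 3436 CPM in ctr and 4269, 3414 and 4020 CPM in PG_KO. Krt6a, with a log2 change of 3.05 (SE 0.89), lies on chromosome 15. Whether the place of Krt14, Krt13 and Krt15 near the targeted gene bears on their change was not tested.

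Stromal genes were lower on average, and the size rested on 2 ctr libraries. All 85 tested genes of the fibroblast, smooth muscle, endothelium, and enteric neuron and glia lists had a negative log2 change, with a median of -1.09, and 2 of them, the proteoglycan gene Ogn and the neuropeptide gene Tac1, were lower without overlap (background 8.67%). Their summed share was 2.04%, 1.31% and 0.425% of reads in ctr 1, 2 and 3 and 0.567%, 0.567% and 0.438% in PG_KO 1, 2 and 3 (exact permutation p = 0.4). The ctr 3 library thus lay below every PG_KO library. Without ctr 1 the median was -0.56, and against ctr 3 alone it was 0.45. Acta2, the smooth muscle actin, was at 1093, 842 and 169.7 CPM in ctr and 122, 196 and 284 CPM in PG_KO, and Col1a1, a fibrillar collagen, at 415, 315 and 139.8 CPM in ctr and 119, 149.7 and 118 CPM in PG_KO. Of 22 smooth muscle genes 0 separated the groups, and against ctr 3 alone 13 were higher in PG_KO, where the background was 26.2%. The highest library was ctr 1 for all 23 fibroblast genes, all 18 endothelial genes and 21 of 22 smooth muscle genes. The smaller stromal lists were not in that sum and were mixed in sign. Of 5 genes of interstitial cells of Cajal 1 was positive, of 7 mesothelial genes 2, of 6 adipose genes 2 and of 4 striated muscle genes 2. Among these Kit, a receptor of interstitial and mast cells, was lower without overlap with a change of -1.36 (SE 0.40), as were the lipases Lpl and Lipe with -1.39 (SE 0.46) and -0.87 (SE 0.29), and Tnni2, a troponin of fast muscle, was higher with 1.17 (SE 0.40). Kit, Lpl, Lipe and Tnni2 are expressed in the organoids too, as are Krt19 and Msln, the 2 positive mesothelial genes. Krt19 is also on the pan-epithelial list, so these positive changes need not come from stromal cells.

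**Figure D3:**
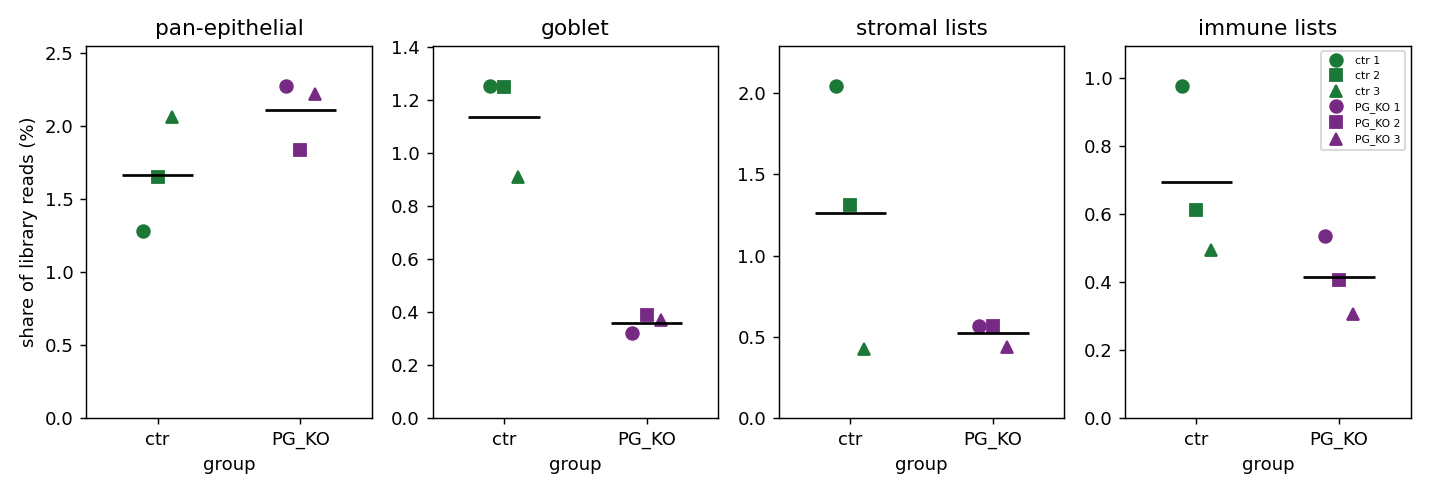
Share of library reads (%) taken by the summed pan-epithelial, goblet, stromal and immune lists (the stromal and immune sums hold the lists summed in the text), with 1 point per library and a line at each group mean. Goblet shares do not overlap between ctr and PG_KO, while ctr 3 lies at or near the PG_KO values for the stromal lists.

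Most T and NK cell genes were lower in all 3 PG_KO libraries. Of 23 tested 15 were lower without overlap and 0 higher, with a median log2 change of -1.54, and DESeq2 called 7. The count was 15 without ctr 1 and 15 against ctr 3 alone, where the background was 10.7% and 20.3%. Their levels were low. Foxp3, the factor of regulatory T cells, was at 1.74, 2.24 and 1.55 CPM in ctr and 0.493, 0.416 and 0.479 CPM in PG_KO. Il2rb, a receptor subunit for IL-2 and IL-15, was at 14.1, 13.5 and 8.8 CPM in ctr and 4.93, 4.24 and 3.76 CPM in PG_KO. Cd3e, a chain of the T cell receptor complex, was at 2.47, 4.14 and 1.42 CPM in ctr and 0.282, 0.238 and 1.2 CPM in PG_KO. Ctla4, an inhibitory T cell receptor, was at 7.41, 5.09 and 4.4 CPM in ctr and 1.97, 1.54 and 1.2 CPM in PG_KO. Stromal RNA is also highest in ctr 1 and ctr 2. With the mean level of fibroblast and smooth muscle genes as a covariate the T and NK cell median was -1.08, and against ctr 3 alone it was -0.76. The size of this change thus rests in part on ctr 1 and ctr 2.

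B and plasma cell genes had a median of -1.67 over 19 tested, and 5 were lower without overlap. Igha, the heavy chain of IgA, was at 1485, 572 and 445 CPM in ctr and 321, 227 and 126 CPM in PG_KO. Without PG_KO 3, 18 of 19 were lower, where the background was 14.8%, but without ctr 1 the count was 5, where it was 10.7%. The B and plasma cell median was -0.57 against ctr 3 alone and -0.99 with the stromal covariate named above. Of 9 MHC class II genes 4 were lower, with a median of -1.30, and DESeq2 called 3. That median was -0.49 against ctr 3 alone and -0.72 with the same covariate. Cd74, the invariant chain, was at 1002, 1257 and 473 CPM in ctr and 392, 273 and 362 CPM in PG_KO. Among 20 macrophage genes 2 were lower (C1qa and Cx3cr1), against a background of 8.67%, and the median moved from -0.80 to -0.25 without ctr 1. Of 13 neutrophil genes 2 were lower, Ly6g and Ltf, both also expressed in the organoids, and the median moved from -0.93 to 0.14 without ctr 1. Of 11 dendritic cell genes 5 were lower, against the background of 8.67%, with a median of -1.09. The dendritic cell median was -0.39 against ctr 3 alone and -0.54 with the stromal covariate. Over the 86 genes of the T and NK, B and plasma, macrophage, dendritic and neutrophil lists 29 were lower and 0 higher, with a median of -1.42, which became -0.97 without ctr 1 and -0.44 against ctr 3 alone. Mast cell and eosinophil genes were not in that sum. Of 6 tested 4 were lower (Kit, the proteases Mcpt1 and Mcpt2, and Siglecf) and 0 higher, with a median of -0.78.

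Inflammatory genes differed widely among the 3 PG_KO libraries. Of 25 cytokine and NF-kB genes 24 were lowest of all 6 libraries in PG_KO 3, the library with Xist, and 16 were highest in PG_KO 1. Il6 was at 4.62, 5.48 and 3.21 CPM in ctr and 53, 15.6 and 0.103 CPM in PG_KO. Il1b was at 298, 146 and 90.5 CPM in ctr and 529, 204 and 14.9 CPM in PG_KO, and Tnf at 29.2, 33 and 20.5 CPM in ctr and 133, 25.1 and 5.74 CPM in PG_KO. By the count of separated groups 1 gene was lower, the chemokine Ccl20, with a change of -1.75 (SE 0.59). Interferon response genes were highest in PG_KO 1 for 24 of 28 and lowest in PG_KO 2 for 23, and 0 separated the groups. Gbp2, an interferon-induced GTPase, was at 399.6, 598 and 269.9 CPM in ctr and 1187, 202 and 214 CPM in PG_KO. Of 30 inflammasome genes 3 were lower, near the background of 8.67%. These were P2rx7, an ATP-gated channel, -1.36 (SE 0.43), and the pore-forming Gsdmd, -0.47 (SE 0.24), and Gsdme, -0.50 (SE 0.31). P2rx7 was at 32.3, 15.1 and 9.5 CPM in ctr and 7.08, 8.33 and 6.32 CPM in PG_KO, and it overlapped when scaled to the pan-epithelial genes. Casp1 and Pycard, the core protease and adaptor, overlapped at 0.01 (SE 0.32) and 0.10 (SE 0.46). Of 31 p38 pathway genes 2 were lower, Rps6ka5 and Mef2d, against the same background of 8.67%. Mapk14, which encodes p38 alpha, overlapped at 105, 108 and 127 CPM in ctr and 106, 128 and 104 CPM in PG_KO.

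**Figure D4:**
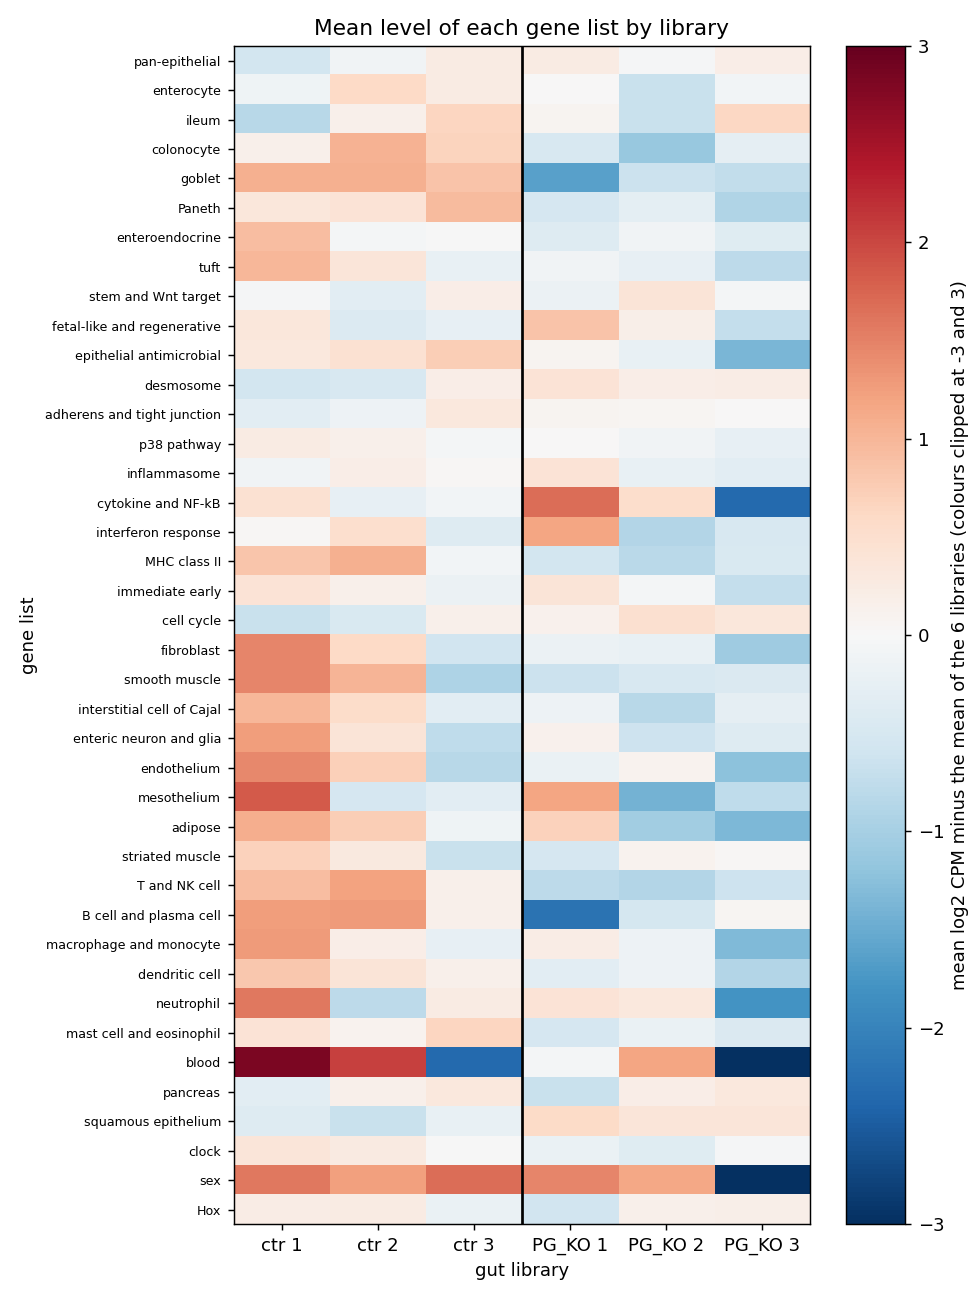
Mean log2 CPM of each gene list in each gut library, minus the mean of the 6 libraries, as colour (red above, blue below, clipped at -3 and 3). The goblet row is above its mean in all 3 ctr libraries and below it in all 3 PG_KO libraries, while stromal rows are highest in ctr 1 and cytokine rows differ among the PG_KO libraries.

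All genes were also sorted by their level in the organoids. The 14282 organoid-expressed genes (a mean of at least 1 CPM in an organoid group) had a median log2 change of 0.04, with 11.9% higher and 6.97% lower without overlap. The 1309 genes not in organoids (below 0.1 CPM in every organoid library) had a median of -1.11, with 0.535% higher and 20.6% lower. Without ctr 1 their median was -0.58, and with that stromal covariate it was -0.09. Organoid-expressed genes with the smallest p that were higher in PG_KO included Hsph1 and Hspe1, which encode chaperones, with log2 changes of 1.15 (SE 0.21) and 0.84 (SE 0.18), Snrpd2, a splicing factor, 0.67 (SE 0.12), Psat1, an enzyme of serine synthesis, 1.00 (SE 0.21), and Selenoh, Cyp2s1, Isy1 and Phlda2. Hsph1 was at 85.1, 74.4 and 87.8 CPM in ctr and 187, 225 and 135 CPM in PG_KO. Those that were lower were Abcb1a, Jup, Car4, Fcgbp, Rdh9, Camk2n1, Prss30 and Lbp, an LPS-binding protein, at 29.2, 34.8 and 39 CPM in ctr and 7.29, 8.11 and 3.69 CPM in PG_KO. Among genes not in organoids, the lower ones were Saxo1, Retnlb, Sval1, Col6a4, St8sia1, St8sia5, Ctla4 and Robo2, and Krt14 and Mira were the only 2 higher ones that met the rule. Sval1 was at 130.1, 117 and 48 CPM in ctr and 5.11, 15.6 and 12.8 CPM in PG_KO.

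**Figure D5:**
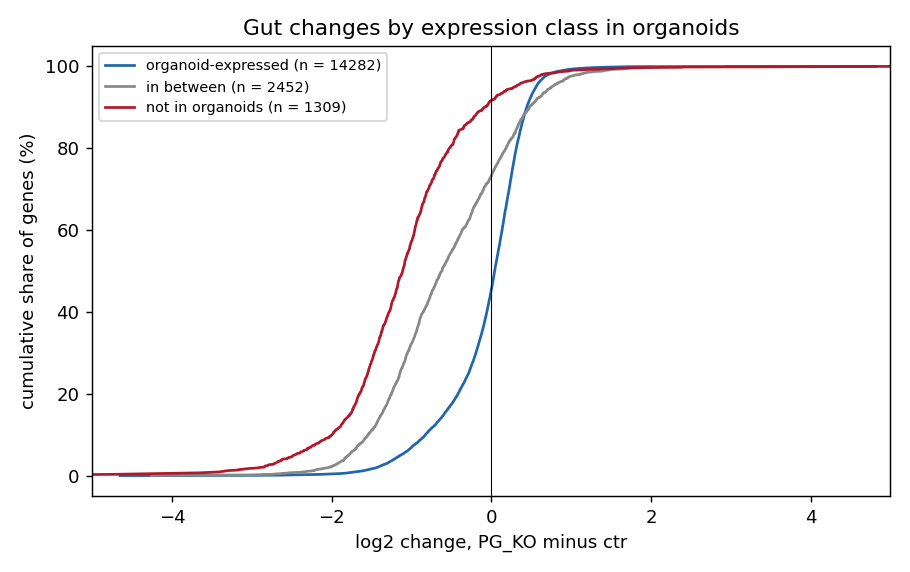
Cumulative share of genes (%) against the log2 change, PG_KO minus ctr, for 3 classes of genes by their level in organoids. The curve of the 1309 genes not in organoids lies to the left, with a median of -1.11, and that of the 14282 organoid-expressed genes centres near 0.04.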

How the data were processed

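Poly(A) RNA of 6 gut samples was sequenced, after TRIZOL isolation with integrity numbers of at least 7.7, per the labels' protocols, by which 4 samples started from 300 ng and another 2, not identified, from roughly 200 ng. The deposited values are expected counts (reads per gene, not scaled, with fractions where reads were divided), and the submitters' processing notes name the aligner STAR 2.7.2b, the counter featureCounts 1.6.4, trimming by cutadapt 2.5, and the build GRCm38.p6. Strand setting and read filters are not given in the sources used here, so genes on opposite strands and near-identical copies cannot be told apart. Counts were rounded and fitted with edgeR 4.0.16 (R 4.3.3) on the 6 libraries, with TMM factors, filterByExpr, robust quasi-likelihood tests and Benjamini-Hochberg adjustment, called at 0.05. CPM use library totals, and groups were said not to overlap from CPM. Shares were compared by exact permutation. Alternatives were DESeq2 1.42.0, limma-voom (limma 3.58.1), other scalings and filters, a stromal covariate, the replicate number as a block, and leaving out libraries, and some were added after seeing the data. Scripts were tested on simulated data.

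The comparison, the 41 gene lists and the rule for named genes were chosen with earlier results of these data known. That rule takes Jup, its partners, up to 4 members of each list with the smallest edgeR p, and in each organoid class the 8 genes per direction with the smallest p among those at 5 CPM or more whose groups do not overlap, leaving out predicted genes, pseudogenes, antigen receptor segments and sex genes. Several other list members in the text were chosen after their values were seen. The mitochondrial list had 0 genes in the table used here. Plots come from matplotlib 3.10.9.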

Additional observations from a re-analysis of the deposited data

How the results depend on the processing

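The main count of 0 called genes became 458 with DESeq2, 3 when scaled to the pan-epithelial genes (Car4, Jup and Prss30), 5 with no low-count filter (Clca4c-ps, Abcb1a, Rdh9, Car4 and Jup) and 1 with the stromal covariate (Jup), and ranged from 0 to 1478 when single libraries were left out, the highest without ctr 3. The log2 change of Jup passed the threshold at -2.28 with DESeq2, -2.50 scaled to the pan-epithelial genes, -2.27 with no low-count filter, -2.60 with the stromal covariate and -2.03 without ctr 3 (edgeR adjusted p = 0.0329), and ranged from -2.47 to -2.03 when single libraries were left out. The median of -1.09 over the 85 summed stromal genes became 0.13 with the stromal covariate, which is built from genes of the same lists, and 0.45 without ctr 1 and ctr 2 together, an alternative chosen after seeing the data. The median of -1.42 over the 86 summed immune genes became -0.70 with the stromal covariate, -0.75 without ctr 1 and PG_KO 3 together, -0.44 without ctr 1 and ctr 2 together, and ranged from -1.57 to -0.97 when single libraries were left out. The cause of these shifts was not tested. With the replicate block 0 genes were called and the log2 change of Jup was -2.26. Deviations of libraries with the same number correlated at 0.29, -0.18 and 0.15, so the numbers do not pair the samples, and the block changed no call. With 3 libraries per group, the spread between libraries limits these comparisons, and the effect of read depth was not tested.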

Other observations

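Clock genes, which drive daily rhythms, were in part lower in PG_KO. Of 17 tested 4 were lower without overlap and 1 higher, against backgrounds of 8.67% and 9.97%. Nr1d1, a repressor of the clock loop, was at 37.2, 34.6 and 29.1 CPM in ctr and 16.3, 4.79 and 16.4 CPM in PG_KO, and Ciart, another repressor, was at 2.13, 2.18 and 2.58 CPM in ctr and 3.84, 5.5 and 3.2 CPM in PG_KO. Arntl and Clock, the activators of the loop, overlapped, with log2 changes of 0.06 (SE 0.13) and 0.01 (SE 0.16).

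Tac1, which encodes the precursor of substance P, was at 93, 169.5 and 149 CPM in ctr and 39, 38.5 and 25.6 CPM in PG_KO, a log2 change of -1.99 (SE 0.30), and the organoids express it too. Other enteric neuron genes overlapped, such as Vip at 205, 69.8 and 39.9 CPM in ctr and 138, 68 and 58 CPM in PG_KO. Gata4, a factor of the proximal intestine, was low throughout, at 1.43, 0.776 and 1.19 CPM in ctr and 0.176, 0.198 and 0.0684 CPM in PG_KO. Hemoglobin genes varied by library within both groups: Hbb-bs was at 158, 77.8 and 2.68 CPM in ctr and 18.4, 51.2 and 1.16 CPM in PG_KO. Il33, an alarmin of the fetal-like list, was at 57.5, 12.2 and 46.5 CPM in ctr and 272, 143 and 46 CPM in PG_KO, where PG_KO 3 lay inside the ctr range.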
